A study of Drosophila melanogaster with 20 samples.

Results

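The genes described here encode subunits of the mitochondrial respiratory chain and of the ATP synthase, measured in wing discs and disc tumors of Drosophila. They are all genes whose single symbol starts with ND- (complex I), UQCR- (complex III), COX and a digit (complex IV) or ATPsyn (complex V), and 72 of 13402 named genes met that rule, each with 1 probe set. By complex, 33 belonged to complex I, 7 to complex III, 17 to complex IV and 15 to complex V. Of the 72, 50 were nuclear genes of the standard subunits, 3 (COX1, COX2 and COX3) lay in the mitochondrial genome and 19 were paralogs whose symbol ends in L or in L and a digit. ND-MNLL also ends in L but is the standard gene and was counted with the 50. RefSeq holds 83 symbols of this form, and the other 11 are not analysed here: COX6B, COX7CL, ND-23, ND-24, ND-30, ND-49, ND-49L, ND-AGGG, ND-B15, UQCR-C1 and UQCR-C2.

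Complexes I, III and IV pass electrons from NADH to oxygen and pump protons across the inner mitochondrial membrane, and complex V, the ATP synthase, uses the proton gradient to make ATP. A few core subunits are made inside the mitochondrion from its own genome, and all others are nuclear genes whose products are imported, so that the 2 genomes have to be expressed in step. In the fly many nuclear subunits have a second, similar gene that is known mostly from the testis. Wing discs are the larval epithelial sacs that form the adult wing and thorax.

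All discs were of an EGFR genotype, named for the receptor of epidermal growth factor, without or with psqRNAi, which targets pipsqueak (psq), a gene for a nuclear BTB-domain protein. Discs of 12 hr, before tumors formed, were E_Ctrl (EGFR) and EP_Ctrl (EGFR+psqRNAi), early hyperplastic tumors of day 4 were E_EHT (EGFR) and EP_EHT (EGFR+psqRNAi), and late neoplastic tumors of day 11 were EP_LNT (EGFR+psqRNAi). EGFR was thus shared by all 5 groups. The sources used here do not give what drove it or the RNAi, or how 12 hr relates to day 4 and day 11. Discs without EGFR are not analysed here, so in comparisons over time disc age and tumor growth cannot be told apart. Each sample pooled about 20 pairs of discs on 1 Affymetrix array, with 4 arrays per group that the labels call biological replicates. The submitters set aside E_EHT replicate 1 for technical problems, which left n = 3 there and 19 arrays in all.

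Values were log2 expression levels made by the authors with RMA, a method that forces all arrays to nearly the same distribution, so a difference of 1 is a 2-fold difference and a level cannot be set against that of another gene. In bulk discs fewer cells of a type and less RNA per cell cannot be told apart. The wing disc genes vg, nub, ap and rn lay above the array's median gene on 19 of 19 arrays. psq stood at 11.15 ± 0.05 (SD, n = 3) in E_EHT and 10.70 ± 0.18 (n = 4) in EP_EHT, and was lower with psqRNAi at day 4 by limma (log2 fold change -0.45, adjusted p = 0.0163) but not at 12 hr (-0.09, adjusted p = 0.675). Markers of other tissues varied among arrays. Over 8 salivary gland genes the mean level ran from 8.06 to 11.88 in E_Ctrl, 8.29 to 11.65 in EP_Ctrl, 7.28 to 11.67 in E_EHT, 7.66 to 11.43 in EP_EHT and 6.35 to 8.28 in EP_LNT. Over 12 muscle genes it was 6.99 to 7.25 in EP_LNT, 7.05 on EP_EHT replicate 4 and 7.41 to 9.54 on the others, and over 4 myoblast genes 9.11 to 9.56 in EP_LNT and at most 8.96 on the others. Over 6 fat body genes it was 9.755 to 10.003 in EP_LNT and 10.47 or more on every other array, and over 10 haemocyte genes 8.43 to 9.82 in EP_LNT against 7.98 to 8.94 on the others. The part of these cells in the results below was not tested.

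The 50 nuclear subunit genes moved together from array to array. Counts over these genes in the comparisons below are thus not counts of separate results. The deviation of each gene from its own mean over the 19 arrays, averaged over the 50, was 0.12, 0.08, 0.03 and 0.18 on the 4 E_Ctrl arrays and 0.01, 0.07, -0.05 and 0.05 on the EP_Ctrl arrays. It was -0.08, -0.16 and -0.19 on E_EHT replicates 2 to 4. It was 0.11, 0.28, -0.01 and -0.14 on EP_EHT replicates 1 to 4 and 0.01, -0.05, -0.10 and -0.16 on EP_LNT replicates 1 to 4. All 3 E_EHT arrays thus lay below all 8 arrays of 12 hr, while the EP_EHT arrays ran from above all other arrays (replicate 2) to below all 8 arrays of 12 hr (replicate 4).

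**Figure D1:**
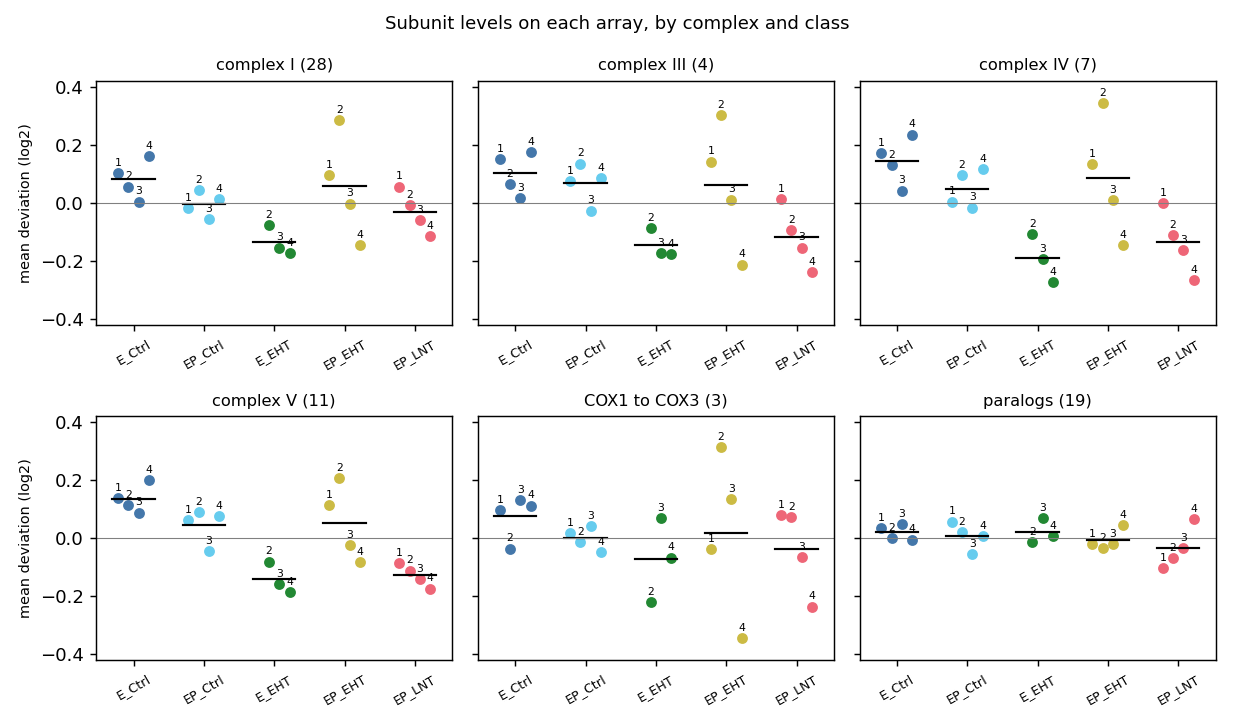
Mean deviation of the member genes from their own means over 19 arrays (y axis, log2), for each array by group (x axis), in panels for nuclear genes of complexes I, III, IV and V, for COX1 to COX3 and for the paralogs, with the number of genes in brackets. Points are arrays with their replicate number and bars are group means; E_EHT lies below both groups of 12 hr in the 4 nuclear panels, and in those panels and that of COX1 to COX3 the widest spread within a group is that between EP_EHT replicates 2 and 4.

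The spread within EP_EHT was the largest of the 5 groups for these genes. The median SD within the group over the 50 genes was 0.188 there, against 0.141 for all genes, and 0.074 to 0.101 in the other groups, where all genes had 0.094 to 0.122. On EP_EHT replicate 2, 49 of the 50 genes lay above their own mean, and on EP_EHT replicate 4, 42 lay below it. The share of all genes that did so is not given here. The salivary gland markers averaged 10.82 on EP_EHT replicate 2 and 7.66 on replicate 4, and 11.22 and 11.43 on replicates 1 and 3. Elsewhere they averaged 11.67 on E_EHT replicate 4, where the 50 genes had a mean deviation of -0.19. On E_Ctrl replicate 4 they averaged 8.06, with a deviation of 0.18, and on E_Ctrl replicate 1 11.88, with 0.12. How these markers relate to the 50 genes was not tested. The 19 paralogs had a median SD of 0.081 in EP_EHT, but 11 of them lay among the dimmest 25% of genes, where RMA compresses differences, against 1 of the 50 nuclear genes, so the SDs of these classes cannot be set against each other.

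**Figure D2:**
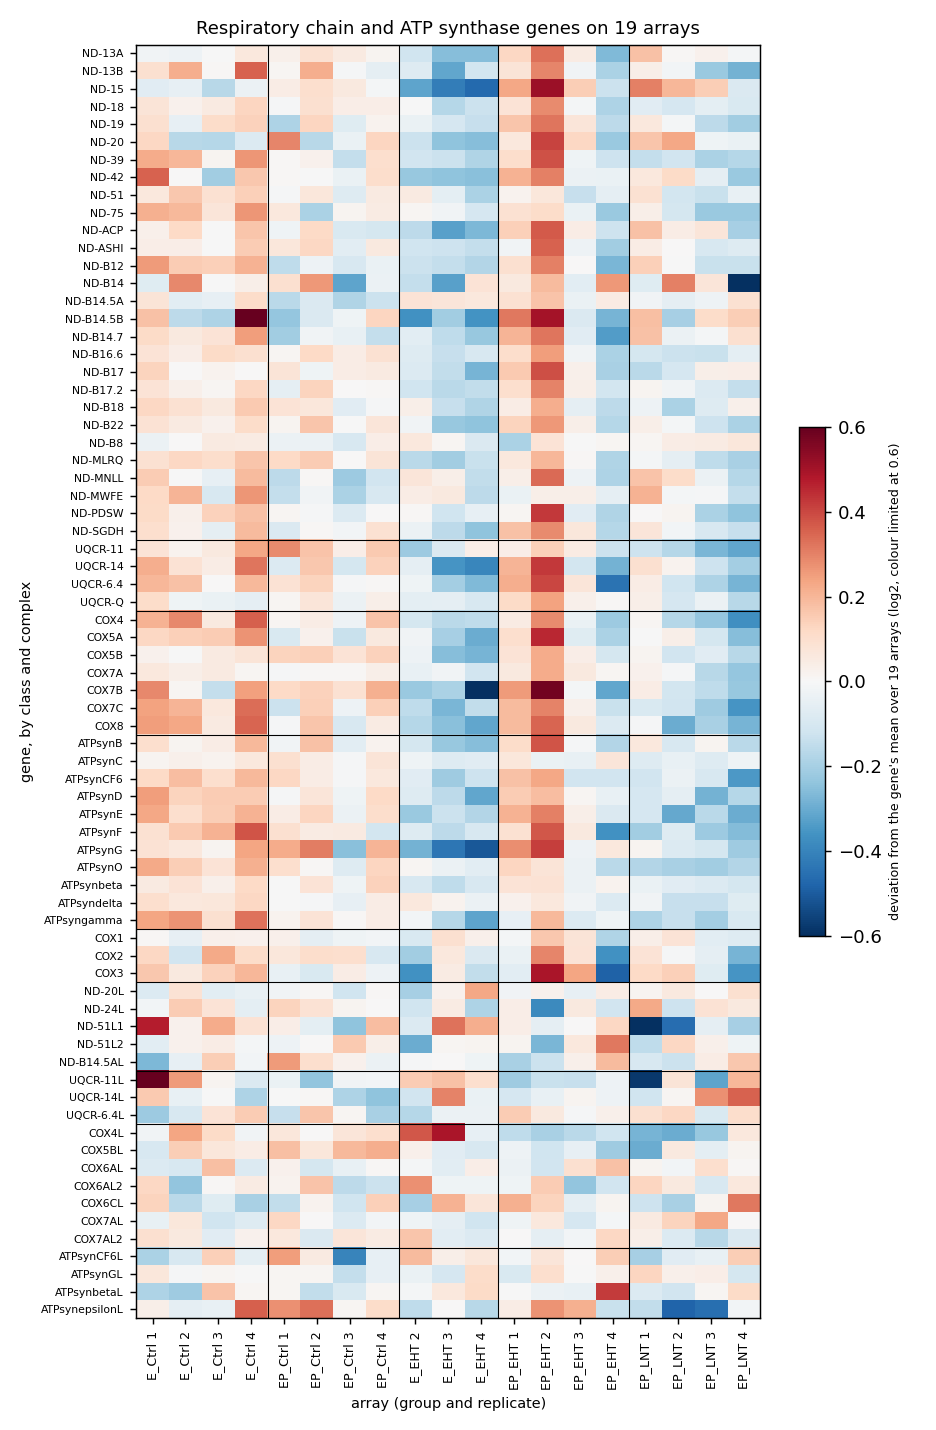
Deviation of each of the 72 genes (rows, grouped by class and complex) from its own mean, in log2 units by colour, on each of 19 arrays (columns, by group and replicate). The nuclear genes in the upper rows are mostly below their means on the E_EHT arrays and on EP_EHT replicate 4 and above them on EP_EHT replicate 2, where 49 of 50 are; the paralogs in the lower rows show no such bands.

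The first comparison asked how subunit levels changed from 12 hr to day 4 with EGFR alone (E_EHT, n = 3, against E_Ctrl, n = 4). Of the 50 nuclear genes, 9 fell and 0 rose, where 4.61% of all genes fell and 1.97% rose. The 9 held 5 of 11 genes of complex V, 3 of 7 of complex IV, 1 of 28 of complex I and 0 of 4 of complex III. The fitted log2 fold change was below 0 for 49 of the 50 (46% of all genes), and for 40 of the 50 all 3 E_EHT arrays lay below all 4 E_Ctrl arrays (14.8% of all genes). By an unadjusted limma p below 0.05, 36 were lower and 0 higher, against 13.3% and 9.61% of all genes. The median log2 fold change was -0.22 over the 50 and 0.02 over all genes.

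Among the ATP synthase genes, ATPsynG (chromosome 2L, 10975522 to 10976399, Release 6), a membrane subunit of the Fo part, stood at 7.03, 7.01, 6.96 and 7.18 in E_Ctrl and at 6.66, 6.51 and 6.44 in E_EHT. It fell 1.42-fold (log2 fold change -0.51 ± 0.12 (SE), limma adjusted p = 0.0227), and the groups did not overlap. ATPsyngamma (3R, 29747704 to 29749163), the rotating central stalk, was at 6.88 ± 0.10 (SD, n = 4) and 6.48 ± 0.15 (n = 3) and fell 1.32-fold (-0.40 ± 0.08, limma adjusted p = 0.00749). ATPsynD of the peripheral stalk (-0.35 ± 0.07, limma adjusted p = 0.0109) and ATPsynE of the Fo part (-0.35 ± 0.08, adjusted p = 0.0195) fell by about the same. ATPsynbeta, the catalytic subunit, fell least of the 9 (-0.19 ± 0.05, limma adjusted p = 0.0361); it stood at 12.61 to 12.70 in E_Ctrl and 12.42 to 12.48 in E_EHT. Thus genes of the catalytic head, both stalks and the membrane part were among the 5.

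Of the oxidase genes, COX8 (3L, 21538859 to 21539447), one of the small nuclear subunits that surround the catalytic core, stood at 10.72, 10.69, 10.52 and 10.81 in E_Ctrl and at 10.29, 10.21 and 10.15 in E_EHT. It fell 1.38-fold (-0.47 ± 0.10, limma adjusted p = 0.0126). COX7C fell 1.32-fold (-0.40 ± 0.10, limma adjusted p = 0.0275), and COX4, a subunit through which ATP acts on the oxidase in mammals, fell 1.29-fold (-0.37 ± 0.11, adjusted p = 0.0453). COX7B had a larger fitted difference than either (-0.45 ± 0.16) and did not pass (limma adjusted p = 0.109). All 7 oxidase genes had no overlap between the groups, and their median was -0.37.

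In complex I, ND-MLRQ (3L, 23339326 to 23345936) fell 1.22-fold (-0.29 ± 0.07, limma adjusted p = 0.0276); its mammalian counterpart NDUFA4 is now assigned to complex IV. ND-B14.5B (-0.43 ± 0.19, limma adjusted p = 0.189) and ND-B12 (-0.34 ± 0.10, adjusted p = 0.0511) had the largest fitted differences and did not pass. The median was -0.21 over the 28 genes. By the arm in which they sit, it was -0.18 over 7 genes of the NADH-oxidising N module, -0.26 over 4 of the quinone-reducing Q module and -0.21 over 15 of the proton-pumping P module, and the other 2 were not placed in an arm. In complex III, UQCR-14 (-0.43 ± 0.14, limma adjusted p = 0.0751) and UQCR-6.4 (-0.31 ± 0.14, adjusted p = 0.201) did not pass, and the median over 4 genes was -0.25.

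Single arrays decided how many genes passed. The count of 9 became 5, 5 or 3 when E_Ctrl replicate 1, 2 or 4 was left out, and 5, 2 or 1 when E_EHT replicate 2, 3 or 4 was, with ATPsyngamma left in each of these. The share of all genes that passed in either direction moved too, from 6.58% to between 2.04% and 3.91% in these 6 fits. The count was 16 with the arrays centred on their medians, where 7.31% of all genes passed, and 17 when only the groups compared were fitted, where 8.78% did. The median of the 50 genes stayed between -0.28 and -0.21 with any 1 array left out.

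The second comparison asked the same of discs with EGFR+psqRNAi (EP_EHT against EP_Ctrl, n = 4 and 4). Of the 50 nuclear genes 1 rose and 0 fell, where 2.95% of all genes rose and 1.78% fell, and the median log2 fold change was 0.04 against 0.01 for all genes. The 1 gene was ND-B14.5A (X, 2172526 to 2173432), an accessory subunit of complex I. It stood at 9.76, 9.84, 9.74 and 9.79 in EP_Ctrl and at 10.02, 10.09, 9.88 and 9.97 in EP_EHT, and rose 1.16-fold (0.21 ± 0.06, limma adjusted p = 0.0392). With EGFR alone it was the 1 nuclear gene whose fitted difference at day 4 was above 0 (0.06 ± 0.06, limma adjusted p = 0.631). It was also the only one of the 50 with no overlap between the groups, against 6.59% of all genes that lay higher without overlap. The fitted difference was above 0 for 33 of the 50 (52.9% of all genes), and by an unadjusted limma p below 0.05, 1 was higher and 0 lower, against 10.4% and 7.1% of all genes. ND-B14.5A did not pass without any 1 of EP_Ctrl replicates 1 to 4 or EP_EHT replicates 1 and 2. The median was -0.03 without EP_EHT replicate 2 and 0.12 without EP_EHT replicate 4, so its sign rested on single arrays. Among other members with the largest differences, UQCR-11 had -0.14 ± 0.07 (limma adjusted p = 0.38) and ND-B14.5B 0.17 ± 0.18 (adjusted p = 0.718), and neither passed.

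Whether the genotypes differed in their change to day 4 was tested directly, as the change with EGFR+psqRNAi minus that with EGFR alone. With limma 0 of 72 members passed, as did 0 of 13402 genes (0% called). By an unadjusted p below 0.05, 24 of the 50 nuclear genes had a positive difference and 0 a negative one, against 11.8% and 4.48% of all genes. The 50 genes moved together on the arrays, so their signs are not 50 separate results. The fitted difference was above 0 for 50 of the 50 nuclear genes and 48.2% of all genes, with a median of 0.27 against -0.01. The largest were those of ND-B14.5B (0.59 ± 0.26 (SE), limma adjusted p = 0.269), ATPsynG (0.57 ± 0.17, adjusted p = 0.151) and COX8 (0.57 ± 0.14, adjusted p = 0.138). ND-ACP, the acyl carrier protein of complex I (0.46 ± 0.14, limma adjusted p = 0.157), COX7C (0.46 ± 0.14, adjusted p = 0.151), UQCR-14 (0.46 ± 0.19, adjusted p = 0.251), ATPsynE (0.40 ± 0.11, adjusted p = 0.141) and UQCR-6.4 (0.31 ± 0.19, adjusted p = 0.423) followed in their complexes. By complex the median was 0.43 for IV, 0.33 for V, 0.25 for I and 0.23 for III. Without EP_EHT replicate 4, 10 members and 2.57% of all genes passed, and the median of the 50 was 0.33.

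**Figure D3:**
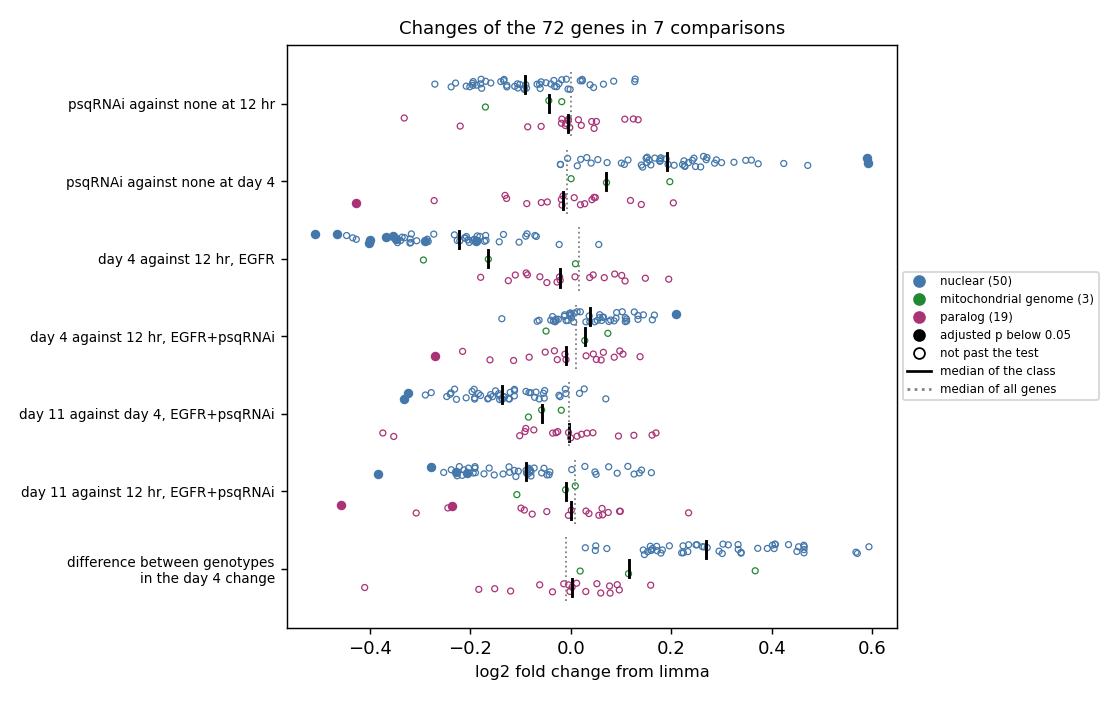
Log2 fold change from limma (x axis) of each of the 72 genes in 7 comparisons (y axis), by class: 50 nuclear, 3 of the mitochondrial genome and 19 paralogs. Filled points passed an adjusted p of 0.05, black bars are class medians and dotted lines the median of all genes; the nuclear median is -0.22 from 12 hr to day 4 with EGFR alone and 0.04 with EGFR+psqRNAi, and paralog medians lie near 0 in all 7.

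The third comparison asked what psqRNAi changed in day 4 tumors (EP_EHT, n = 4, against E_EHT, n = 3). Of the 50 nuclear genes 2 rose and 0 fell, where 2.39% of all genes rose and 0.783% fell. ND-15 (2L, 114726 to 156030), the fly counterpart of the mammalian complex I subunit NDUFS5, stood at 7.84, 7.75 and 7.69 in E_EHT and at 8.39, 8.67, 8.31 and 8.03 in EP_EHT. It rose 1.51-fold (0.59 ± 0.11, limma adjusted p = 0.00747), and the groups did not overlap. Its SD was 0.26 in EP_EHT and 0.08 in E_EHT, while the SE rests on 1 spread fitted over all 5 groups. ATPsynG stood at 7.22, 7.36, 6.92 and 7.01 in EP_EHT, all above the 3 E_EHT values given above, and rose 1.5-fold (0.59 ± 0.12, limma adjusted p = 0.0141).

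Below the threshold, 47 of the 50 had a fitted difference above 0 (48% of all genes). By an unadjusted limma p below 0.05, 25 of the 50 were higher and 0 lower, against 9.89% and 7.41% of all genes. The median was 0.19 against -0.01 for all genes. For 12 of the 50 all EP_EHT arrays lay above all E_EHT arrays (8.32% of all genes). COX7B (0.47 ± 0.16, limma adjusted p = 0.128), COX8 (0.37 ± 0.10, adjusted p = 0.0507) and ATPsynE (0.29 ± 0.08, adjusted p = 0.0643) did not pass. UQCR-14 had 0.32 ± 0.14 (limma adjusted p = 0.241) and ND-B14.5B 0.42 ± 0.19 (adjusted p = 0.257). By complex the median was 0.25 for IV, 0.20 for III, 0.19 for I and 0.18 for V, and within complex I it was 0.23 in the Q module, 0.18 in the P module and 0.04 in the N module.

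The count depended on EP_EHT replicate 4. Without it 19 nuclear genes rose and the median was 0.28, while the share of all genes that passed in either direction went from 3.17% to 8.46%, and without EP_EHT replicate 2 the median was 0.12. ND-15 passed without each array in turn; ATPsynG did not without E_EHT replicate 3, E_EHT replicate 4 or EP_EHT replicate 1, and neither passed when only these 2 groups were fitted, where 0 members did. This comparison and that over time with EGFR alone share the E_EHT arrays, so ATPsynG in both is not 2 separate results.

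At 12 hr, before tumors, psqRNAi was set against none (EP_Ctrl against E_Ctrl, n = 4 and 4). Of the 50 nuclear genes 0 rose and 0 fell by limma's adjusted p, where 0.664% of all genes rose and 1.76% fell; by an unadjusted p below 0.05, 6 were lower and 0 higher, against 10% and 5.56% of all genes. The median log2 fold change was -0.09, and 41 of the 50 lay below 0 against 49.7% of all genes. For 9 of the 50 all EP_Ctrl arrays lay below all E_Ctrl arrays, against 7.8% of all genes. ND-B12 had the largest difference of complex I (-0.27 ± 0.09, limma adjusted p = 0.154), with 9.03 to 9.14 in E_Ctrl and 8.73 to 8.85 in EP_Ctrl, and ND-MWFE the next (-0.24 ± 0.08, adjusted p = 0.161). ATPsyngamma had -0.19 ± 0.07 (limma adjusted p = 0.191), ATPsynF -0.19 ± 0.11 (adjusted p = 0.443), COX5A -0.21 ± 0.11 (adjusted p = 0.38), COX8 -0.19 ± 0.09 (adjusted p = 0.321) and UQCR-14 -0.14 ± 0.13 (adjusted p = 0.661). Without E_Ctrl replicate 3, ND-MWFE passed.

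The last comparisons followed EGFR+psqRNAi discs into neoplastic tumors of day 11 (EP_LNT). They share the EP_LNT arrays, so a gene that passed in both, here or in the lists below, does not give separate results. Against day 4 (EP_EHT, n = 4 and 4), 2 of the 50 nuclear genes fell and 0 rose, where 2.5% of all genes fell and 4.49% rose. ATPsynE (3R, 14326947 to 14327735) stood at 8.57, 8.66, 8.40 and 8.28 in EP_EHT and at 8.26, 8.05, 8.20 and 8.06 in EP_LNT and fell 1.26-fold (-0.33 ± 0.08, limma adjusted p = 0.013); the groups were next to each other without overlap. COX8 stood at 10.65, 10.81, 10.52 and 10.38 in EP_EHT and at 10.46, 10.17, 10.27 and 10.18 in EP_LNT, with overlap, and fell 1.25-fold (-0.32 ± 0.09, limma adjusted p = 0.0425). COX7C (-0.29 ± 0.09, limma adjusted p = 0.0725), UQCR-11 (-0.25 ± 0.07, adjusted p = 0.0578), UQCR-6.4 (-0.20 ± 0.13, adjusted p = 0.447) and ND-39 (-0.24 ± 0.09, adjusted p = 0.12) did not pass.

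The fitted difference from day 4 was below 0 for 47 of the 50 (51% of all genes), with a median of -0.14. By an unadjusted limma p below 0.05, 14 were lower and 0 higher, against 9.63% and 10.6% of all genes, and for 5 all EP_LNT arrays lay below all EP_EHT arrays (4.11% of all genes). The medians were -0.21 for complex IV, -0.19 for V, -0.18 for III and -0.10 for I. Here too the arrays of EP_EHT set the count: without EP_EHT replicate 4, 11 members fell, with 7.36% of all genes passing in either direction against 6.99% with it. COX8 did not pass without any 1 of EP_EHT replicates 1, 2 and 3, or EP_LNT replicates 2, 3 and 4, and ATPsynE did not without EP_LNT replicate 2, where 0 members passed. The median was -0.07 without EP_EHT replicate 2.

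Against 12 hr (EP_Ctrl, n = 4 and 4), 4 of the 50 nuclear genes fell and 0 rose, where 10% of all genes fell and 12.1% rose, so the share was no higher than the background. They spanned 3 complexes. UQCR-11 (3L, 25120709 to 25126171), the fly counterpart of the hinge protein of complex III, stood at 9.65, 9.54, 9.41 and 9.53 in EP_Ctrl and at 9.24, 9.19, 9.09 and 9.05 in EP_LNT. It fell 1.3-fold (-0.38 ± 0.07, limma adjusted p = 0.00122), with no overlap. ATPsynE fell 1.21-fold (-0.28 ± 0.08, limma adjusted p = 0.0132). ATPsynO, which joins the catalytic head to the peripheral stalk, fell 1.17-fold (-0.23 ± 0.06, limma adjusted p = 0.0134), from 11.87 to 12.07 over the EP_Ctrl arrays to 11.73 to 11.77 over the EP_LNT arrays. COX5B fell 1.15-fold (-0.21 ± 0.07, limma adjusted p = 0.0375). UQCR-11, ATPsynE and ATPsynO passed without each array in turn; COX5B did not without any 1 of EP_Ctrl replicates 1 to 4 or EP_LNT replicates 2, 3 and 4. In the same comparison 4 of 4 myoblast and 7 of 10 haemocyte markers rose, and 5 of 12 muscle, 4 of 6 fat body and 3 of 8 salivary gland markers fell, while 1 muscle and 1 fat body marker rose; their part in these values was not tested.

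The complexes differed in their medians from 12 hr to day 11, with -0.22 for complex IV, -0.19 for V, -0.14 for III and -0.06 for I. All 7 genes of complex IV and all 11 of complex V had a fitted difference below 0, against 17 of 28 of complex I. The difference between complexes was not tested. ND-15 stood at 8.46, 8.36, 8.31 and 8.07 in EP_LNT and did not change by the test from 12 hr (0.09 ± 0.10, limma adjusted p = 0.599). Among members that did not pass, ND-MLRQ had -0.19 ± 0.07 (limma adjusted p = 0.0531) and COX7B -0.25 ± 0.15 (adjusted p = 0.268). Over the 50 genes the median was -0.09 and 39 lay below 0, against 48.2% of all genes. By an unadjusted limma p below 0.05, 14 were lower and 1 higher, against 15.8% and 17.1% of all genes, and 13 lay lower without overlap, against 11% of all genes.

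**Figure D4:**
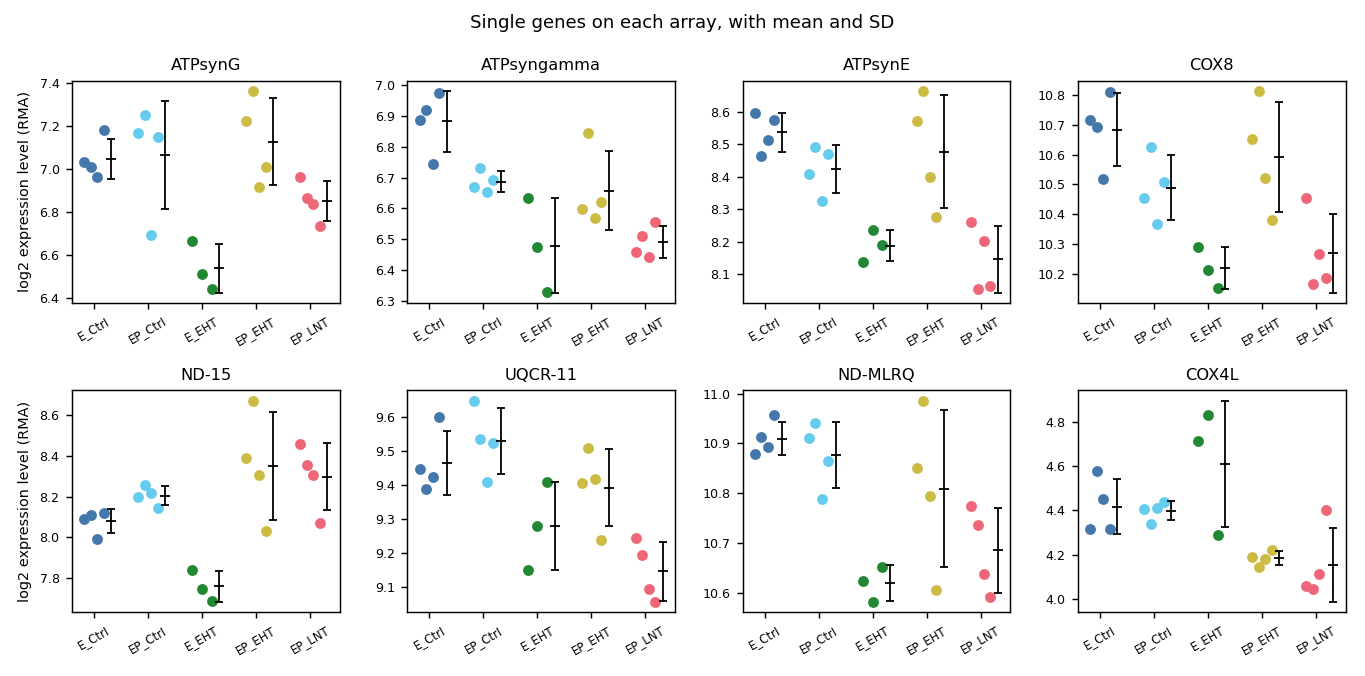
Log2 expression levels (y axis, RMA, a separate scale per panel) of 8 member genes on each array by group (x axis), with mean and SD beside the points (n = 3 in E_EHT, 4 elsewhere). ATPsynG, ATPsyngamma, ATPsynE, COX8 and ND-MLRQ are lower in E_EHT than in E_Ctrl without overlap, ND-15 is higher in EP_EHT than in E_EHT, UQCR-11 has its lowest mean in EP_LNT, and the paralog COX4L is lower in EP_EHT than in E_EHT.

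COX1, COX2 and COX3, the genes of the mitochondrial genome that make the catalytic core of complex IV, passed in 0 of 7 comparisons by limma, with 0 at an unadjusted p below 0.05. With 3 genes, and 4.61% of all genes fallen from 12 hr to day 4 with EGFR alone, this does not set them apart from the nuclear genes, and the difference was not tested. Their median was -0.16 from 12 hr to day 4 with EGFR alone and 0.07 with psqRNAi at day 4. COX3 stood at 10.65, 11.20, 10.95 and 10.22 on EP_EHT replicates 1 to 4, a span wider than the differences between the group means, which were 10.56 to 10.85. On EP_EHT replicates 2 and 4 the mean deviation of the 3 genes was 0.31 and -0.34, in the same directions as the nuclear genes on these arrays. The other 9 mitochondrial protein genes on the array (ATP6, ATP8, CYTB, ND1, ND2, ND3, ND4L, ND5 and ND6), chosen after the table was seen, had 0.44 and -0.55 there and also passed in 0 of 7 comparisons.

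The 19 paralogs stayed near 0 as a group, with medians between -0.02 and 0.00 in the 7 comparisons, and single ones fell. From 12 hr to day 11, 2 of the 19 fell and 0 rose, where 10% of all genes fell, a share near the background. With psqRNAi at day 4, 1 fell and 0 rose, where 0.783% of all genes fell. From 12 hr to day 4 with EGFR+psqRNAi, 1 fell and 0 rose, where 1.78% of all genes fell. In the other comparisons 0 of the 19 passed. COX4L (2R, 5353994 to 5354723) stood at 4.71, 4.83 and 4.29 in E_EHT and at 4.19, 4.15, 4.18 and 4.22 in EP_EHT and was lower with psqRNAi at day 4 (-0.43 ± 0.11, limma adjusted p = 0.0403), while COX4 had 0.16 ± 0.11 (adjusted p = 0.465). COX4L did not pass without any 1 of E_EHT replicates 2 and 3 or EP_EHT replicates 1, 2 and 3. Its mean of 4.34 lay below the first quartile of gene means (5.90). Of the 9 testis markers, 1 rose from 12 hr to day 4 with EGFR alone, where 1.97% of all genes did. With psqRNAi at day 4, 0 of the 9 passed, with 6 fitted differences below 0 and 3 above. The part of testis signal in the COX4L values was not tested. COX5BL fell from 12 hr to day 4 with EGFR+psqRNAi (-0.27 ± 0.07, limma adjusted p = 0.0483) and to day 11 (-0.24 ± 0.07, adjusted p = 0.0302). Both results of COX5BL use the EP_Ctrl arrays, so they are not separate results. At day 4 it did not pass with any 1 of the 8 arrays left out (EP_Ctrl and EP_EHT replicates 1 to 4), and at day 11 it did not without EP_Ctrl replicates 1, 3 or 4 or EP_LNT replicates 1 or 3. ATPsynepsilonL fell 1.37-fold from 12 hr to day 11 (-0.46 ± 0.12, limma adjusted p = 0.0116), from 6.98, 7.04, 6.72 and 6.82 to 6.56, 6.22, 6.25 and 6.69, and passed without each array in turn. Its counterpart sun, the standard epsilon subunit, did not pass there. From day 4 to day 11, ATPsynepsilonL did not pass (-0.37 ± 0.12, limma adjusted p = 0.0754). ND-51L1 had -0.35 ± 0.13 from day 4 to day 11 (limma adjusted p = 0.112) and -0.31 ± 0.13 from 12 hr to day 11 (adjusted p = 0.0969). UQCR-11L had the largest member difference with psqRNAi at 12 hr (-0.33 ± 0.17, limma adjusted p = 0.369) and -0.27 ± 0.19 with psqRNAi at day 4 (adjusted p = 0.483). From 12 hr to day 11, COX4L had -0.24 ± 0.10 (limma adjusted p = 0.0962) and UQCR-14L 0.23 ± 0.11 (adjusted p = 0.146). From 12 hr to day 4 with EGFR+psqRNAi, COX4L had -0.22 ± 0.10 (limma adjusted p = 0.281), ATPsynbetaL 0.14 ± 0.10 (adjusted p = 0.56), UQCR-6.4L 0.10 ± 0.09 (adjusted p = 0.655) and ATPsynCF6L 0.09 ± 0.11 (adjusted p = 0.783). None of these passed.

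Genes that work beside the subunits were counted from 5 lists, and whether a list differed from all genes was not tested. One list held 14 other chain and ATP synthase genes, whose symbols do not follow the rule. Of these, 0 fell from 12 hr to day 4 with EGFR alone, where 4.61% of all genes did. By an unadjusted limma p below 0.05, 9 of the 14 were lower and 0 higher there, against 13.3% and 9.61% of all genes. With psqRNAi at day 4, 0 of the 14 rose, where 2.39% of all genes did. There 5 of the 14 were higher and 0 lower by an unadjusted limma p below 0.05, against 9.89% and 7.41% of all genes. The medians of the 14 were -0.24 and 0.15. From 12 hr to day 11, 2 of the 14 fell and 0 rose, where 10% of all genes fell and 12.1% rose. They were blw, the catalytic head's alpha subunit (-0.32 ± 0.06, limma adjusted p = 0.000554), which also fell from day 4 (-0.21 ± 0.06, adjusted p = 0.0333), and levy, a complex IV subunit (-0.29 ± 0.08, adjusted p = 0.0156). blw stood at 11.62, 11.53, 11.54 and 11.82 in EP_Ctrl and at 11.29 to 11.32 in EP_LNT. At 12 hr, 1 of the 14 was lower with psqRNAi (1.76% of all genes). It was bonsai (-0.45 ± 0.09, limma adjusted p = 0.0108), which encodes a mitochondrial ribosomal protein rather than a chain subunit.

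Of 12 assembly factors, 2 fell from 12 hr to day 4 with EGFR alone (4.61% of all genes), Scox, which brings copper to the oxidase (-0.30 ± 0.06, limma adjusted p = 0.0112), and Cchl, which attaches heme to cytochrome c (-0.32 ± 0.09, adjusted p = 0.0399). With psqRNAi at day 4, 2 of the 12 rose (2.39% of all genes): Cchl (0.35 ± 0.09, limma adjusted p = 0.0388) and CIA30, a complex I assembly factor (0.32 ± 0.08, adjusted p = 0.0401). Both results of Cchl use the E_EHT arrays (8.46 to 8.69), so they are not 2 separate results. In the other comparisons 0 of the 12 passed.

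Of 22 genes of carriers, import and dynamics, 5 fell and 0 rose from 12 hr to day 4 with EGFR alone, where 4.61% of all genes fell and 1.97% rose. They were porin, the channel of the outer membrane (-0.18 ± 0.05, limma adjusted p = 0.0339), and 4 genes of protein import, of which Tim9a had the largest difference (-0.56 ± 0.13, adjusted p = 0.0177). With psqRNAi at day 4, 1 of the 22 rose (2.39% of all genes), the matrix chaperone gene Hsc70-5 (0.23 ± 0.06, limma adjusted p = 0.0456). Ant2 and sesB, the carriers that exchange ATP for ADP across the inner membrane, fell in day 11 tumors, and the changes of Ant2 were the largest among the genes of these lists that passed in any of the 7 comparisons. Ant2 stood at 8.23, 8.25, 8.33 and 8.33 in EP_Ctrl, at 7.78, 7.96, 7.86 and 8.32 in EP_EHT and at 6.85, 7.21, 6.76 and 7.34 in EP_LNT. It fell 2.37-fold from 12 hr (-1.25 ± 0.13, limma adjusted p = 4.88e-06) and 1.92-fold from day 4 (-0.94 ± 0.13, adjusted p = 0.000493), with no overlap of EP_LNT with either group. sesB fell 1.39-fold from 12 hr (-0.48 ± 0.07, limma adjusted p = 6.33e-05) and 1.2-fold from day 4 (-0.27 ± 0.07, adjusted p = 0.0205), and porin fell in both (-0.29 ± 0.04, adjusted p = 0.000155, and -0.17 ± 0.04, adjusted p = 0.0237). In all, 4 of the 22 fell and 1 rose from 12 hr to day 11 (10% and 12.1% of all genes), and 3 fell and 0 rose from day 4 (2.5% and 4.49%). The 1 that rose was Pink1, a kinase of mitochondrial quality control (0.40 ± 0.07, limma adjusted p = 0.000494), which had also risen by day 4 (0.30 ± 0.07, adjusted p = 0.02). Both results of Pink1 use the EP_Ctrl arrays, so they are not separate results.

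Of 13 TCA cycle genes, 2 fell from 12 hr to day 11, where 10% of all genes did: mAcon1, a mitochondrial aconitase (-0.34 ± 0.05, limma adjusted p = 0.00016), and ScsbetaG of succinyl-CoA synthetase (-0.30 ± 0.09, adjusted p = 0.0291), and 0 passed at or before day 4. From day 4 to day 11, 1 of the 13 fell (2.5% of all genes), mAcon1 (-0.24 ± 0.05, limma adjusted p = 0.0115). A further list held 11 genes of mitochondrial genome upkeep and respiratory gene regulation. From 12 hr to day 11, CtBP fell (-0.28 ± 0.07, limma adjusted p = 0.00733) and crc rose (0.16 ± 0.04, adjusted p = 0.00755), where 10% and 12.1% of all genes did. From 12 hr to day 4 with EGFR+psqRNAi, mtDNA-helicase rose (0.29 ± 0.07, limma adjusted p = 0.0328), as did 2.95% of all genes. SdhB, SdhC and SdhD stood in both the list of other chain genes and that of the TCA cycle.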

How the data were processed

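The authors deposited RMA values on the log2 scale for each probe set on each array; the submitters' processing notes name RMA and limma, without versions. Settings of the normalization are not given in the sources used here. Total RNA was labelled with biotin by in vitro transcription, per the labels' protocols. RMA compresses differences between dim probe sets and would remove a shift shared by most genes. The table holds no detection calls, so no gene was shown to lie above background.

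Of 16322 probe sets, the platform annotation gave 13441 a single symbol, 555 several and 2326 none used here. RefSeq (Release 6 plus ISO1 MT) matched 13064 of those with 1 symbol and gave gene coordinates, which are not probe positions; COX1, COX2 and COX3 were matched by symbol. Where a gene had several probe sets (37 genes), that of highest mean was used, which left 13402 genes. Groups came from the sample titles. Per the labels the 4 samples of a group are biological replicates of pooled discs.

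The 19 arrays entered 1 fit with a mean per group (limma 3.58.1, R 4.3.3, lmFit and eBayes without trend, 14 residual degrees of freedom). P-values are two-sided and adjusted by Benjamini-Hochberg over 13402 genes, with a threshold of 0.05; "rose" and "fell" mean past it. Level errors are SD and fold change errors SE, whose median was 0.093 with 4 against 4 arrays, 0.1 with E_EHT and 0.137 for the genotype difference. The fit takes 1 spread per gene for all groups, so SEs and p-values do not measure the wider spread of the members within EP_EHT. An array has no read depth, and the number of arrays limits the precision. Of simulated 1.5-fold changes in 200 of 13402 genes, 84.5% (psqRNAi at 12 hr), 80% (psqRNAi at day 4), 67.5% (day 4, EGFR), 80% (day 4, EGFR+psqRNAi), 79% (day 11 against day 4), 81% (day 11 against 12 hr) and 55.5% (genotype difference) were recovered. Of the genes called in the simulations, 3.07% to 6.9% had not been changed. The simulated noise had 1 SD per gene for all groups and was independent between genes. Most member changes were smaller than 1.5-fold, and the recovery of such changes was not simulated. No 2 arrays of a group shared more than 2 genes with the same value to all decimals deposited.

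The members, lists, tests and markers were chosen with earlier results of these data known. Named members were up to 8 called per direction, all called where 5 or fewer were, and the 2 largest differences per complex, paralogs included. The rule let a member so named be followed in other comparisons and set a paralog beside its counterpart. List genes named are those that passed (the rule allowed the 4 largest of a list). ATPsynbeta, named from 12 hr to day 4 beyond the 8, these list genes and the tissue genes vg, nub, ap and rn were chosen after their values were seen. Entries measured were 14 of 19 other chain genes, 12 of 20 assembly factors, 13 of 23 TCA cycle genes, 11 of 16 regulators and 22 of 24 carriers. Of the 8 marker lists, the ranges not given above over 19 arrays were 10.41 to 10.78 (5 trachea), 7.44 to 7.84 (6 neuron and glia) and 5.39 to 5.63 (9 testis).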

Additional observations from a re-analysis of the deposited data

Results flagged for a closer look

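On 6 occasions 1 array lay far from the other 3 of its group, out of 152 groups of arrays checked, of which chance gives about 1 in 20. ATPsynD stood at 10.75 on E_Ctrl replicate 1 (10.63 to 10.65 on the others) and UQCR-6.4 at 9.61 on E_Ctrl replicate 3 (9.79 to 9.81). COX5B stood at 11.84 on EP_Ctrl replicate 3 (11.89 to 11.90) and UQCR-11L at 6.81 on EP_Ctrl replicate 2 (7.001 to 7.028). ATPsynbetaL stood at 7.10 on EP_EHT replicate 4 (6.64 to 6.68) and UQCR-6.4L at 4.62 on EP_LNT replicate 3 (4.81 to 4.83).

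On the array that the submitters set aside, E_EHT replicate 1, 3 paralogs lay more than 1 log2 unit above every 12 hr array. COX6CL stood at 7.58 there and at 4.13 to 4.64 on the other 19 arrays, COX4L at 6.22 (4.04 to 4.83) and COX7AL at 4.91 (3.38 to 3.73). Of the 19 paralogs 12 lay above all 19 other arrays, against 3 of the 50 nuclear genes and 2062 of all 13402. Of the 9 testis markers, 3 lay above all 19 other arrays there and 2 below, against 2062 and 4208 of all 13402 genes. The 3 included dj (5.29, against 3.44 to 3.69) and Mst87F (6.76, against 5.08 to 6.03). The 2 were vas (5.657, against 5.888 to 6.230) and can (4.728, against 4.755 to 5.427). The part of testis signal in the paralog values was not tested.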

How the results depend on the processing

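The alternatives tried were quantile normalization, centring each array on its median, keeping E_EHT replicate 1, the dimmest 25% of genes left out, a trended robust variance, only the groups compared, every probe set on its own, the replicate number as a block, each array left out in turn and, chosen after seeing the data, removal of each array's trend on gene length and level. Gene by gene, 985 results kept direction and side of the threshold, 96 lost the call, 35 gained one and 1 reversed (ATPsynCF6L from 12 hr to day 4 with EGFR+psqRNAi, -0.034 without EP_Ctrl replicate 3, adjusted p = 0.931, and up to 0.182 with another array left out); the causes were not tested.

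Of members that passed, psqRNAi at 12 hr gave 0, and 1 with only the groups compared (0 to 1 leaving out 1 array, the 1 without E_Ctrl replicate 3). psqRNAi at day 4 gave 3, 5 without dim genes and 0 with only the groups compared (1 to 20; 1 without E_EHT replicate 3 or EP_EHT replicate 1, 20 without EP_EHT replicate 4); the nuclear median was 0.12 to 0.28. Day 4 with EGFR gave 9, 16 with centred arrays and 17 with only the groups compared (1 to 11). Day 4 with EGFR+psqRNAi gave 2, 0 with centred arrays or only the groups compared, and 1 with E_EHT replicate 1 kept, quantile normalization, robust variance, the block or the trend removed (0 to 1; 1 without EP_EHT replicate 3 or 4, 0 without any of the other 6). Day 11 against day 4 gave 2, 1 with E_EHT replicate 1 kept, 4 with quantile normalization or without dim genes, 5 with robust variance and 0 with only the groups compared (0 to 11; 1 without EP_EHT replicates 1, 2 or 3 or EP_LNT replicate 3, 0 without EP_LNT replicate 2); the median of all 72 was -0.18 to -0.06. Day 11 against 12 hr gave 6, and 10 with quantile normalization or the trend removed (4 to 8). The genotype difference gave 0 (0 to 10, the 10 without EP_EHT replicate 4), with a median of all 72 of 0.14 to 0.25. The share of all genes that passed moved too, from 0.478% to 8.46% for psqRNAi at day 4 and from 2.04% to 10.6% for day 4 with EGFR. Members had a median gene length of 1025.5 bp, against 2062 bp for all genes. Of the 72, 48 lay above the median of gene means. With the trend on length and level removed the nuclear medians were -0.05, 0.15, -0.17, 0.02, -0.10, -0.09 and 0.19 in that order. In the main fit they were -0.09, 0.19, -0.22, 0.04, -0.14, -0.09 and 0.27. How far length and level enter the shared movement of these genes was not tested further. Keeping E_EHT replicate 1 took the COX4L difference with psqRNAi at day 4 to -0.83, and COX4L did not pass there. Of the 8 alternatives with COX4L that left out no further array, it kept its call in 4 and lost it in 4.

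With the replicate block, 0, 2, 8, 1, 3, 9 and 0 members passed in the 7 comparisons, in the same order. The numbers did not pair the samples: deviations of same-numbered arrays of different groups correlated with a median r of -0.014 over 36 pairs (-0.402 to 0.37), other pairs with -0.012 over 108, and 5 of 19 arrays correlated best with their own number.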
